A study of Mus musculus with 18 samples.

Results

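The 42 genes described here are neighbours of Pot1a on mouse chromosome 6 and were listed by their position. They run from Kcnd2 (start 21215346) to Ube2h (end 30304539) in the GRCm38.p6 annotation. They were found by symbol in both count tables, as 42 of 24421 gene symbols. Of the 42, 22 lie at lower and 20 at higher coordinates than Pot1a (25743940 to 25809277, minus strand). The list was drawn up with earlier results of these data known and may leave out genes of that span. RNA-sequencing was carried out on 18 libraries, with 3 in each of 6 groups. In the culture experiment, CD51+/PDGFRα+ mesenchymal stem cells (MSCs) were sorted from the bone marrow (BM) of flox-stop-flox tdTomato mice aged 4 to 6 months, of strain C57BL/6 by label, that were homozygous for the floxed Pot1a allele or for the wild type allele. Both genotypes were exposed to Cre Gesicles, vesicles that carry Cre recombinase, at 10 µL per well for 12 hours, and tdTomato+ cells were re-sorted after 48 hours and harvested at week 1 or week 4. These libraries are labelled Δ/Δ and wt/wt. In the second experiment, tdTomato+ BM cells of 2-week-old mice carrying NG2-cre and loxp-tdTomato were sorted without culture and are labelled Δ/Δ or wt/Δ in the sample titles, although the genotype label reads fl/fl for all 6. NG2-cre acts in pericytes and is not confined to the BM. The 3 libraries of each group, cultured and sorted, are described as coming from 3 mice.

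Pot1a encodes a shelterin protein that binds the single-stranded telomere repeat. An allele made in embryonic stem cells of one mouse strain and bred into another carries DNA of the first strain on both sides, since crossovers close to the selected allele are rare. The floxed line is described as B6;129, and such flanking DNA can carry sequence differences that alter neighbouring genes. The genes around Pot1a therefore address whether the genotype comparison also holds a local difference along the chromosome. In culture the labelled genotypes differ by 2 floxed alleles and in sorted cells by 1. Flanking DNA and deletion of Pot1a go together in every library, so that their effects cannot be told apart in these data, and no sequence variant was analysed here.

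Reads assigned to genes numbered 16497756 to 33353069 in Δ/Δ and 26406407 to 32507056 in wt/wt libraries at week 1, 20372063 to 90717232 in Δ/Δ and 12807832 to 28642685 in wt/wt libraries at week 4, and 33495994 to 45107171 in Δ/Δ and 28918757 to 49992698 in wt/Δ libraries of sorted cells. All 7 mesenchymal stromal markers (Pdgfra, Itgav, Prrx1, Cxcl12, Lepr, Cspg4 and Pdgfrb) were detected in every group. Among sorted libraries, 2 stood apart by their summed level of 5 megakaryocyte markers, with 783 CPM (reads of a gene over all assigned reads of its library, after TMM scaling) in Δ/Δ replicate 3 and 1560 CPM in wt/Δ replicate 2, against 16.5 to 26.1 CPM in the other 4. The sorted libraries also held 5 endothelial markers, summed to 1492 to 1597 CPM in Δ/Δ and 929 to 1539 CPM in wt/Δ libraries. Their 6 erythroid markers summed to 144 to 215 CPM in Δ/Δ and 114 to 259 CPM in wt/Δ libraries. Y-linked reads were found in wt/Δ replicates 1 and 3 and in no Δ/Δ library of sorted cells. In bulk RNA, fewer cells of a type and less RNA per cell cannot be told apart.

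The counts of Pot1a itself were no lower under the label Δ/Δ than under the other labels beyond the spread between libraries. At week 1 it had 31.1, 37.9 and 34.6 CPM in Δ/Δ libraries, against 34.3, 33.8 and 36.6 CPM in wt/wt libraries. At week 4 it had 47.9, 46.3 and 42.7 CPM in Δ/Δ libraries, against 37.8, 33.7 and 33.1 CPM in wt/wt libraries, and the groups did not overlap (log2 fold change 0.39, SE 0.11, edgeR adjusted p = 0.0298). This call was lost under 7 of 13 alternatives, among them leaving out wt/wt replicate 2 or 3 or Δ/Δ replicate 1 or 2 (adjusted p from 0.0901 to 0.108). In sorted cells it had 30.8, 19.1 and 31.0 CPM in Δ/Δ libraries, against 26.9, 29.9 and 34.3 CPM in wt/Δ libraries, with overlapping groups (log2 fold change -0.17, adjusted p = 0.824). Counts are summed over the whole gene and do not separate the exons between the loxP sites from the rest, so they do not check the deletion. Deletion was assayed by electrophoresis and by qPCR in the study, on material that is not analysed here, and the directions given below follow the labels.

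How much of the neighbourhood these cells expressed differed by role. Of 42 genes, 24 passed the filter on low counts in culture and 28 in sorted cells, with 23 in both, 1 in culture only (Asb15), 5 in sorted cells only (Kcnd2, Cadps2, Tmem229a, Gpr37 and Lrrc4) and 13 in neither. A gene passes this filter when enough libraries hold about 10 reads or more. All 4 genes of membrane traffic (Gcc1, Arf5, Calu and Atp6v1f), all 6 housekeeping and RNA genes (Ing3, Zfp800, Snd1, Rbm28, Tnpo3 and Ube2h) and all 7 signalling and secreted factors (Tspan12, Cped1, Wnt16, Fam3c, Irf5, Tspan33 and Ahcyl2) were tested in both experiments. Per kilobase of exon, the highest level was that of Calu, which encodes calumenin, a calcium-binding protein of the endoplasmic reticulum. It reached 466 CPM per kb in Δ/Δ and 435 CPM per kb in wt/wt cultures at week 1, 413 CPM per kb in Δ/Δ and 437 CPM per kb in wt/wt cultures at week 4, and 265 CPM per kb in Δ/Δ and 224 CPM per kb in wt/Δ sorted cells.

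The genes under the filter in both experiments were mostly genes of other tissues. They were Aass, Fezf1, Rnf133, Rnf148, Slc13a1, Iqub, Lmod2, Hyal4, Hyal6, Spam1, Grm8, Fscn3 and Pax4. Rnf133 and Rnf148, RING finger genes of the testis that lie inside Cadps2, had 0 reads in all 18 libraries, which allows a level of up to 0.00498 CPM over their 602099266 assigned reads, for counting error only. Among neuronal and glial genes, 1 of 8 was tested in culture, namely Ptprz1, and 6 of 8 in sorted cells. Cadps2, which primes dense-core vesicles for release, had 10.1, 9.99 and 8.58 CPM in Δ/Δ and 4.50, 9.32 and 7.44 CPM in wt/Δ sorted cells, and at most 0.142 CPM in any cultured library. Gpr37, an orphan receptor of glia and neurons that lies 53960 bases from Pot1a, had 0.481 to 2.86 CPM in Δ/Δ and 0.780 to 3.50 CPM in wt/Δ sorted cells. The 2 experiments were scaled separately and differ in age and in culture, so that these levels were set side by side without a test.

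**Figure D1:**
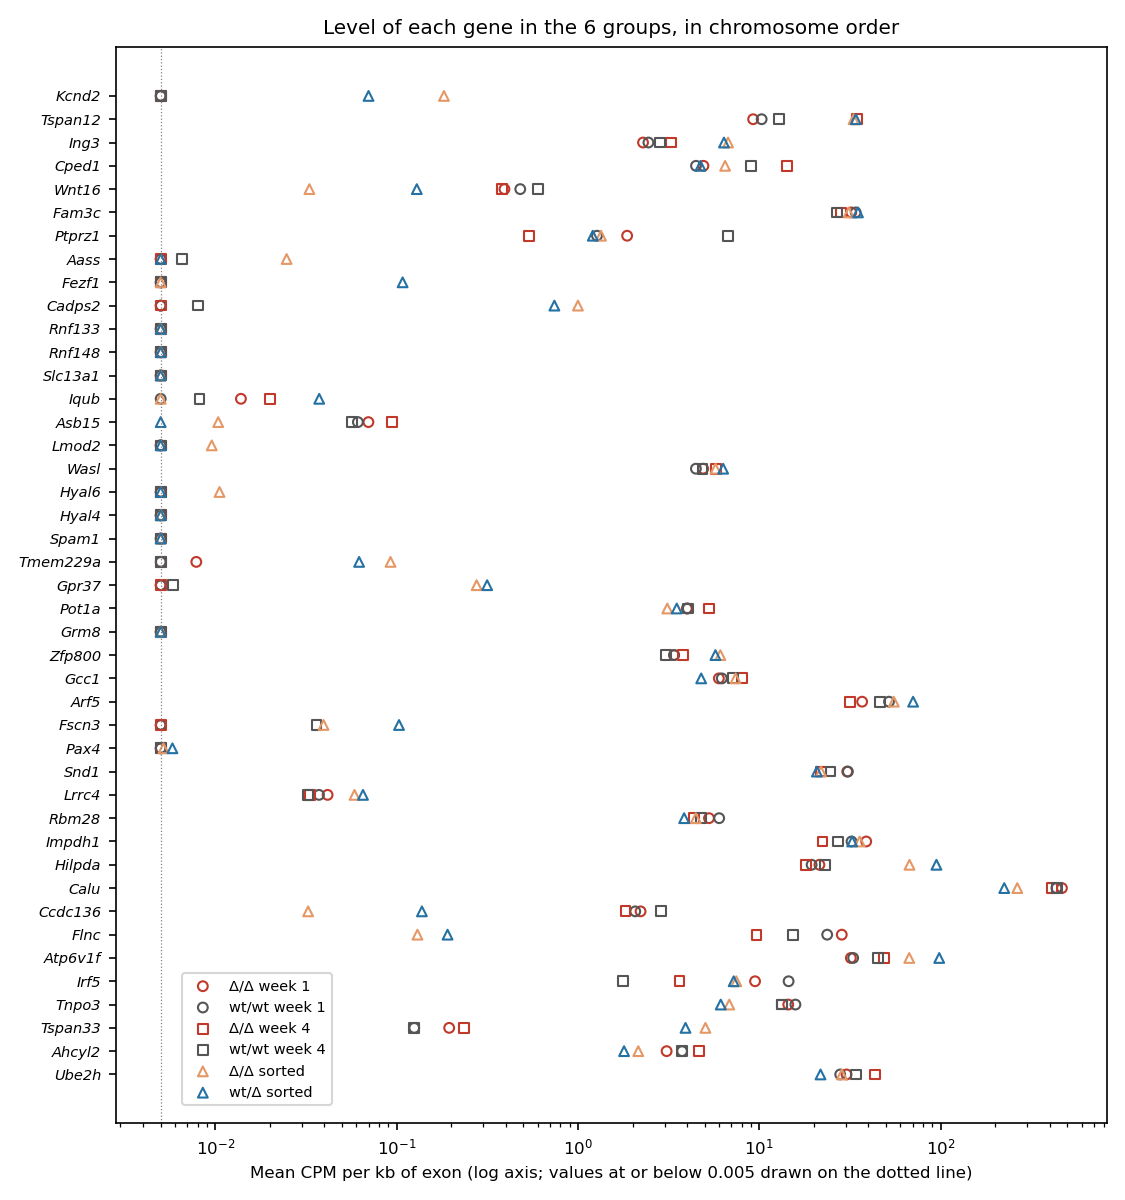
Mean CPM per kilobase of exon on a log axis for the 42 neighbours of Pot1a and for Pot1a itself, in chromosome order from top to bottom. Each marker is the mean of 3 libraries (circles, week 1; squares, week 4; triangles, sorted cells), and Calu is highest while 13 genes passed the filter in neither experiment.

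At week 1, none of the 24 tested neighbours was called between Δ/Δ and wt/wt libraries at an adjusted p under 0.05 in edgeR, against 134 of all 13169 genes (1.02%). At an unadjusted p under 0.05 there were 5 of 24 (Ptprz1, Arf5, Impdh1, Irf5 and Ahcyl2), against 11.9% of all genes. DESeq2 called 1 of 24, Arf5, against 3.34% of all genes. The groups did not overlap for 7 of 24 genes, against 22.6% of all genes. The median log2 fold change of the neighbours was -0.01, and the median size of the change was 0.14, against 0.15 over all genes.

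At week 4, 8 of 24 neighbours were called (33.3%), against 2062 of 13169 genes (15.7%). Tspan12, Cped1, Irf5 and Ube2h rose in Δ/Δ relative to wt/wt libraries (4 of 24, against 9.20% of all genes), and Ptprz1, Arf5, Impdh1 and Ccdc136 fell (4 of 24, against 6.46%). The other 16 were not called. The median log2 fold change was 0.10, against 0.00 over all genes, while the median size of the change was 0.32, against 0.22 over all genes. Groups did not overlap for 12 of 24 genes, against 27.4% of all genes. DESeq2 called 8 of 25, against 16% of all genes. The count was 5 of 23 when only the 6 libraries of week 4 were fitted, against 9.89% of all genes in that fit, and 5 of 24 when wt/wt replicate 2 was left out, against 12.1% of all genes. The summed level of the 7 mesenchymal markers also differed between the groups at week 4, at 14080 to 18130 CPM in Δ/Δ and 7014 to 9515 CPM in wt/wt libraries, most of it Cxcl12. Of the 7, 3 were called higher and 0 lower at week 4, and mean Cspg4 was lower in Δ/Δ libraries (18.35 against 35.15 CPM). At week 1 the summed level stood at 5846 to 6503 CPM in Δ/Δ and 4198 to 5118 CPM in wt/wt libraries, also without overlap. Its part in the week 4 calls was not tested.

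**Figure D2:**
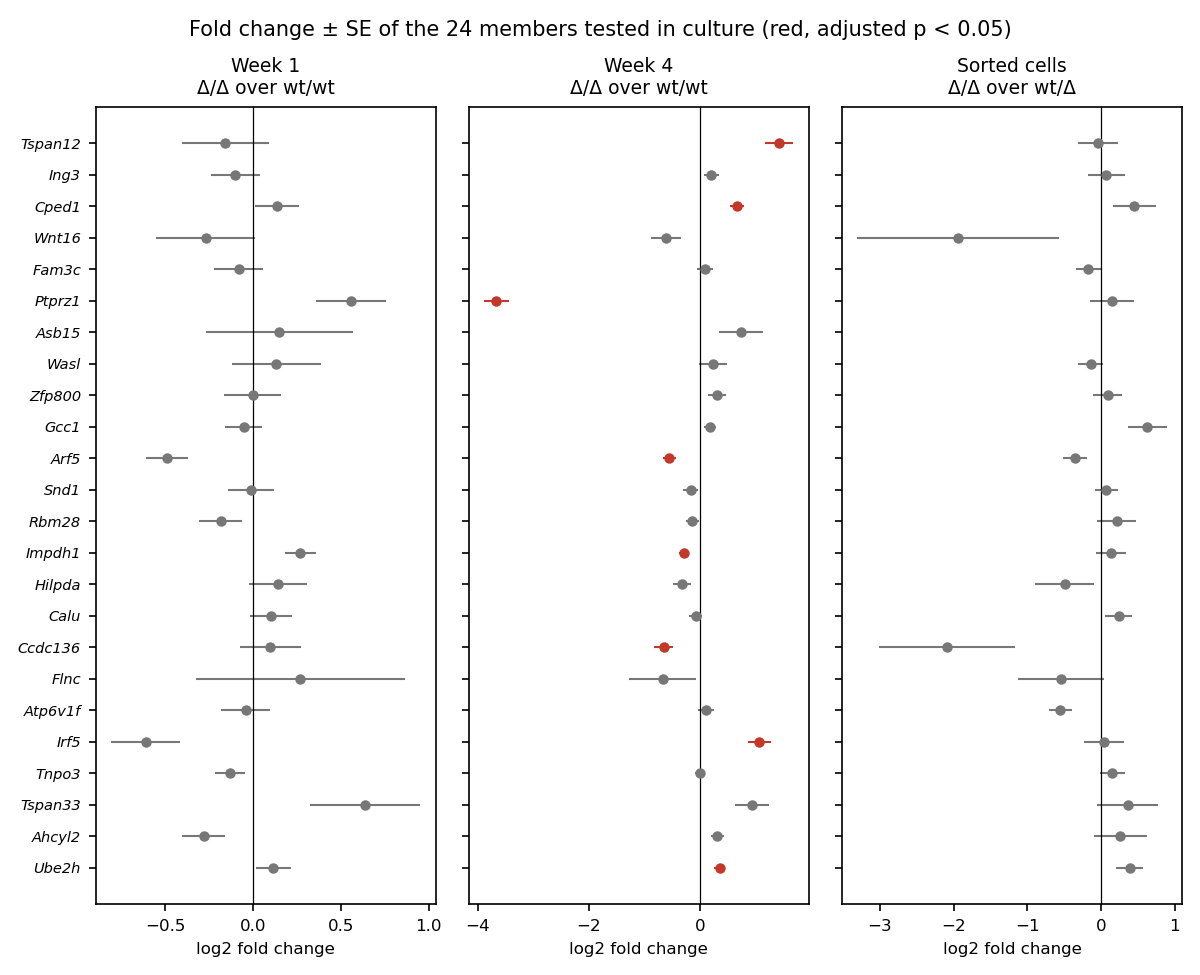
Log2 fold change with its standard error for the 24 neighbours tested in culture, in chromosome order, for Δ/Δ over wt/wt at week 1 and week 4 and Δ/Δ over wt/Δ in sorted cells, on axes of different range. Red points passed an adjusted p of 0.05, as 8 genes did at week 4 and none did at week 1 or in sorted cells, where Asb15 was not tested.

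Arf5, a small GTPase of the Golgi, was lower in the libraries labelled Δ/Δ in every comparison. It lies 2.61 Mb from Pot1a at chr6:28423604-28426602 on the plus strand. Its week 1 level was 77.5, 61.4 and 72.2 CPM in Δ/Δ libraries, against 98.7, 91.4 and 107 CPM in wt/wt libraries. Its week 4 level was 58.5, 56.9 and 65.1 CPM in Δ/Δ libraries, against 99.9, 82.2 and 83.2 CPM in wt/wt libraries. Its sorted-cell level was 93.5, 104 and 118 CPM in Δ/Δ libraries, against 129, 148 and 126 CPM in wt/Δ libraries. In each comparison all 3 Δ/Δ libraries lay below all 3 libraries of the other genotype. The log2 fold change was -0.49 at week 1 (SE 0.12, adjusted p = 0.0778), -0.55 at week 4 (SE 0.12, adjusted p = 0.00678) and -0.52 over both weeks (SE 0.08, adjusted p = 0.00151), a level in Δ/Δ cultures of 69.6% of wt/wt (95% interval 61.3% to 79.1%). The change did not differ detectably between the weeks (interaction -0.06, 95% interval -0.43 to 0.31, adjusted p = 0.917). In sorted cells the log2 fold change was -0.35 (95% interval -0.73 to 0.02, adjusted p = 0.428) and did not pass the test.

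The calls of Arf5 at week 4 and over both weeks held under all 13 and all 18 alternatives. In sorted cells its log2 fold change ran from -0.50 to -0.27 over 14 alternatives, with adjusted p from 0.199 to 0.816. It was -0.37 (adjusted p = 0.750) without the 2 libraries rich in megakaryocyte markers and -0.50 (adjusted p = 0.485) with the presence of Y-linked reads as a covariate. Of 23 neighbours tested in all 3 comparisons, Arf5 alone had the same sign and no overlap in each (4.35%), a pattern shared by 108 of 12767 genes (0.846%). It was singled out after its values were seen.

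The gene next to Arf5 did not follow it. Gcc1, which encodes a golgin of the trans-Golgi network, is transcribed in the opposite direction and starts 1880 bases from the start of Arf5. Week 1 values were 30.7, 33.2 and 31.0 CPM in Δ/Δ libraries, against 29.2, 35.1 and 34.1 CPM in wt/wt libraries, with overlapping groups. Week 4 values were 42.1, 42.6 and 42.9 CPM in Δ/Δ libraries, against 34.7, 39.1 and 39.5 CPM in wt/wt libraries (log2 fold change 0.17, SE 0.11, adjusted p = 0.338). Values in sorted cells were 42.4, 38.4 and 36.4 CPM in Δ/Δ libraries, against 35.8, 19.9 and 20.1 CPM in wt/Δ libraries (log2 fold change 0.63, adjusted p = 0.388). All Δ/Δ libraries lay above those of the other genotype at week 4 and in sorted cells, although neither difference passed the test. Fscn3 and Pax4, on the other side of Arf5, were under the filter in both experiments.

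**Figure D3:**
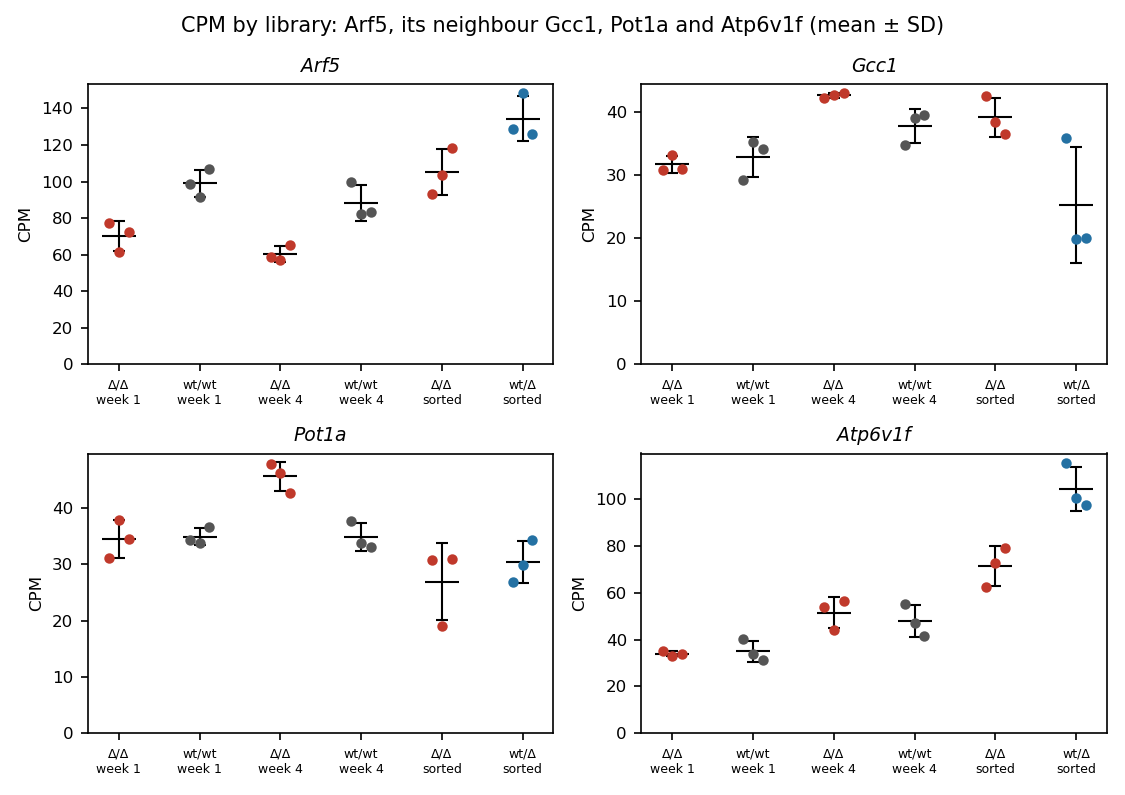
CPM in each library for Arf5, its neighbour Gcc1, Pot1a and Atp6v1f, with points for libraries and bars for mean ± SD (n = 3). Red, Δ/Δ; grey, wt/wt; blue, wt/Δ; all Δ/Δ libraries of Arf5 lie below the group to their right in each pair.

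The starts of the 5 genes whose week 4 calls held under every alternative run, Arf5, Ptprz1, Tspan12, Cped1 and Irf5, are printed as the RefSeq windows of GRCm38.p6, from 250 bases before to 50 bases after an annotated start. Such windows were found for 39 of the 42 genes. They are reference sequence, not sequence read from these mice, and a difference carried by the floxed line would not appear in them. The windows are chr6:28423354-28423653 on the plus strand, chr6:22875252-22875551 on the plus strand, chr6:21852484-21852783 on the minus strand, chr6:21985660-21985959 on the plus strand and chr6:29526375-29526674 on the plus strand. Capitals mark matches on either strand to CCAAT, to GGGCGG (the GC box bound by Sp1-type factors), to TATAAA, to TTAGGG (the telomere repeat), to CACGTG (an E-box) and to TGACGT (part of the cyclic AMP response element), and matches may overlap.
Arf5: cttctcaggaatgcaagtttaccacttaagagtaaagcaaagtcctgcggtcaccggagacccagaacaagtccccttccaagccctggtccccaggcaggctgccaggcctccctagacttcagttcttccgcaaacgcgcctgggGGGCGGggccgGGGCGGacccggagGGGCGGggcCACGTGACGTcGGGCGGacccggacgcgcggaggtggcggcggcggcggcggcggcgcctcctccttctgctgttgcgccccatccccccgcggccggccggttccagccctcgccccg
Ptprz1: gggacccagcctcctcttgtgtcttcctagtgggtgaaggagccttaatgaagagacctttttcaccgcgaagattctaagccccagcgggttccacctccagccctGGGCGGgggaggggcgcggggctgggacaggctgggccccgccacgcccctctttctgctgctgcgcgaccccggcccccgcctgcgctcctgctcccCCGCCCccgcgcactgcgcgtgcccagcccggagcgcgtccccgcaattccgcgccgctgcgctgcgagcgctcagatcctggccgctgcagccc
Tspan12: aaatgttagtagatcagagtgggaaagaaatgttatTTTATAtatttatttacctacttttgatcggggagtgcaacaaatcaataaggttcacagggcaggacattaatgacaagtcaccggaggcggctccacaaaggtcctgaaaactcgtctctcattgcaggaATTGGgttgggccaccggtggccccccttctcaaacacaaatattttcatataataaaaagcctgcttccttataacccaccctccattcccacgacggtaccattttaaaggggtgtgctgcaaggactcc
Cped1: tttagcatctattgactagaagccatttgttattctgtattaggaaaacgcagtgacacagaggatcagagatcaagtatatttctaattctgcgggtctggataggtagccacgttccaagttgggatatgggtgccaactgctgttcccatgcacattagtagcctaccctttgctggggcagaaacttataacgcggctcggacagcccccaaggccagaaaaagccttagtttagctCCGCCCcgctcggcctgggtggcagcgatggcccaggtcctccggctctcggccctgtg
Irf5: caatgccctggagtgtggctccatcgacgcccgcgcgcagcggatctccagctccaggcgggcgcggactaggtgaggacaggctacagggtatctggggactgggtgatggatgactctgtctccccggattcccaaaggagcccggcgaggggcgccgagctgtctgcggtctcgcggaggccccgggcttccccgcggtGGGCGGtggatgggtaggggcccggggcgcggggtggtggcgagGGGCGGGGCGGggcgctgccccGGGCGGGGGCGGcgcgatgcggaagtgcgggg

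These windows differed in base composition and in matches. Arf5 held 32, Ptprz1 29, Cped1 12, Tspan12 7 and Irf5 35 CpG dinucleotides, against a median of 7 over 32851 windows of the same length. GGGCGG was matched 4 times in Arf5, 2 times in Ptprz1, 1 time in Cped1, 5 times in Irf5 and not in Tspan12, and is held by 35.7% of all windows. CACGTG (7.15% of all windows) and TGACGT (7.51%) were matched only in Arf5 among the 5, where they overlap. CCAAT (37.4%) and TATAAA (13.6%) were matched only in Tspan12. The windows of Tspan12 and Irf5 lie wholly inside the annotated genes. Those of Ptprz1 and Cped1 span the annotated 5′ ends but lie mostly inside the genes, and that of Arf5 lies mostly before its gene. TTAGGG, held by 10.6% of all windows, was matched in none of the 5.

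Ptprz1 showed the largest change of the 24. It encodes a receptor tyrosine phosphatase that binds pleiotrophin and is known from glia. At week 4 it had 7.32, 9.53 and 6.09 CPM in Δ/Δ libraries, against 118, 93.8 and 75.9 CPM in wt/wt libraries. The highest Δ/Δ library thus lay far below the lowest wt/wt library, and the level in Δ/Δ cultures was 7.91% of wt/wt (95% interval 5.69% to 11.0%; log2 fold change -3.66, SE 0.22, adjusted p = 6.18e-07). By p-value it stood at rank 16 of 13169 genes. At week 1 it had 23.2, 27.4 and 29.2 CPM in Δ/Δ libraries, against 16.6, 21.7 and 16 CPM in wt/wt libraries. The groups did not overlap but ran the other way, without passing the test (log2 fold change 0.55, SE 0.20, adjusted p = 0.254). The genotype effect differed between the weeks by -4.22 (adjusted p = 6.21e-06). From week 1 on, the gene moved in opposite directions by genotype, with a log2 fold change of week 4 over week 1 of -1.82 in Δ/Δ cultures (adjusted p = 3.15e-05) and 2.40 in wt/wt cultures (adjusted p = 2.87e-06). These values come from the edgeR fit without pairing. With same-numbered wt/wt libraries paired in an edgeR fit of those libraries alone, the wt/wt change was 2.39 (adjusted p = 0.00092). In sorted cells Ptprz1 had 20.4, 23.4 and 13.5 CPM in Δ/Δ libraries, against 13.5, 14.5 and 23.5 CPM in wt/Δ libraries, with overlapping groups.

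Tspan12 and Cped1, at the low-coordinate end of the neighbourhood, rose at week 4, while Ing3, which lies between them, did not pass the test. Ing3 encodes a subunit of a histone acetyltransferase complex and had log2 fold changes of -0.10 at week 1, 0.20 at week 4 (SE 0.14, adjusted p = 0.405) and 0.07 in sorted cells. Tspan12 encodes a tetraspanin that assists the Frizzled-4 receptor. Its week 4 level was 124, 132 and 86.4 CPM in Δ/Δ libraries, against 47.4, 29.3 and 51.2 CPM in wt/wt libraries, with no overlap (log2 fold change 1.42, SE 0.25, adjusted p = 0.00175). Its week 1 level was 27.6, 38.6 and 25.6 CPM in Δ/Δ libraries, against 30.1, 28.5 and 43.7 CPM in wt/wt libraries, with overlapping groups. Its sorted-cell level was 95.9, 102 and 130 CPM in Δ/Δ libraries, against 85.2, 92.6 and 160 CPM in wt/Δ libraries. The 2 sorted groups overlapped, and the log2 fold change was -0.04 (95% interval -0.66 to 0.58). Its call over both weeks (log2 fold change 0.63, adjusted p = 0.0377) was lost under 8 of 18 alternatives. Of these, 7 leave out a single library (week 1 Δ/Δ replicate 1 or 2, week 1 wt/wt replicate 1 or 2, week 4 Δ/Δ replicate 1 or 2, or week 4 wt/wt replicate 2) and gave an adjusted p from 0.0626 to 0.105.

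Cped1, Wnt16 and Fam3c form a locus that human studies have tied to bone mineral density, and Wnt16 is a Wnt ligand known in cortical bone. At week 4 Cped1 had 107, 136 and 109 CPM in Δ/Δ libraries, against 67.4, 82.6 and 73.3 CPM in wt/wt libraries. These groups did not overlap (log2 fold change 0.65, SE 0.13, adjusted p = 0.00312). Week 1 values were 44.4, 38.8 and 38.9 CPM in Δ/Δ libraries, against 33.4, 39.6 and 38.1 CPM in wt/wt libraries, and the groups overlapped. Values in sorted cells were 68.1, 47.2 and 45.6 CPM in Δ/Δ libraries, against 42.1, 24.6 and 50.9 CPM in wt/Δ libraries (log2 fold change 0.45, 95% interval -0.22 to 1.13). Wnt16, which starts 31771 bases beyond the end of Cped1, did not pass the test at either week. It had 1.30, 1.68 and 1.98 CPM in Δ/Δ libraries at week 4, against 3.29, 2.92 and 1.70 CPM in wt/wt libraries (log2 fold change -0.62, SE 0.28, adjusted p = 0.171). Fam3c, a secreted cytokine-like factor, had log2 fold changes of -0.08 at week 1, 0.08 at week 4 and -0.17 in sorted cells, none of which passed the test.

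Irf5, a transcription factor of innate immune signalling, ran in opposite directions at the 2 weeks. At week 1 it had 25.5, 26.3 and 30.7 CPM in Δ/Δ libraries, against 38.5, 47.4 and 40.4 CPM in wt/wt libraries, with all Δ/Δ libraries below (log2 fold change -0.61, SE 0.20, adjusted p = 0.185). Week 4 values were 12.7, 7.75 and 11.1 CPM in Δ/Δ libraries, against 6.80, 4.40 and 4.25 CPM in wt/wt libraries, with all Δ/Δ libraries above (log2 fold change 1.06, SE 0.21, adjusted p = 0.00412). The effects differed by 1.68 (adjusted p = 0.00333). Irf5 fell between the weeks in both genotypes, with a log2 fold change of week 4 over week 1 of -1.38 in Δ/Δ and -3.06 in wt/wt cultures. In sorted cells it had 15.8, 27.6 and 21.7 CPM in Δ/Δ libraries, against 16.2, 25.1 and 21.6 CPM in wt/Δ libraries, with overlapping groups. The 6 leukocyte and macrophage markers summed to 4.36 to 5.58 CPM in Δ/Δ and 3.01 to 3.29 CPM in wt/wt libraries at week 1, where Adgre1 and Itgam were at 0 in both genotypes and Ptprc was also at 0 in wt/wt libraries. At week 4 they summed to 17.4 to 20.5 CPM in Δ/Δ and 14.1 to 19.7 CPM in wt/wt libraries. Most of this was Lyz2, with means of 16.15 CPM in Δ/Δ and 13.66 CPM in wt/wt libraries. Mean Csf1r was 1.756 and 1.48 CPM at week 4, against 1.856 and 1.652 CPM at week 1, in the same order. In sorted cells the 6 markers summed to 788 to 1115 CPM in Δ/Δ and 637 to 1648 CPM in wt/Δ libraries. Their part in the level of Irf5 was not tested. The annotated 3′ ends of Irf5 and of Tnpo3, an importin of SR splicing factors on the other strand, overlap by 1043 bases, and with libraries that do not mark strand their reads there cannot be told apart. Tnpo3 had log2 fold changes of -0.13 at week 1, 0.00 at week 4 and 0.16 in sorted cells, none of which passed the test.

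Impdh1, Ccdc136 and Ube2h passed the test at week 4 with smaller margins. Impdh1, an enzyme of guanine nucleotide synthesis, had 78.2, 66.9 and 75.1 CPM in Δ/Δ libraries at week 4, against 84.5, 94.6 and 90.3 CPM in wt/wt libraries (log2 fold change -0.29, SE 0.09, adjusted p = 0.0483). Its week 1 level was 127, 126 and 131 CPM in Δ/Δ libraries, against 108, 107 and 104 CPM in wt/wt libraries (log2 fold change 0.27, adjusted p = 0.212). The groups did not overlap at either week and stood in opposite order, and the effects differed by -0.56 (adjusted p = 0.0183). The week 4 call of Impdh1 was lost under 8 of 13 alternatives, among them leaving out Δ/Δ replicate 2 or 3 or wt/wt replicate 2 or 3 (adjusted p from 0.0835 to 0.14). Its sorted-cell level was 128, 118 and 108 CPM in Δ/Δ libraries, against 99.2, 136 and 86.2 CPM in wt/Δ libraries, with overlapping groups.

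Ccdc136 encodes a coiled-coil protein of the acrosome and was the only tested gene of 9 testis-restricted or nested genes. At week 4 it had 6.02, 9.33 and 8.40 CPM in Δ/Δ libraries, against 10.1, 14.5 and 12.7 CPM in wt/wt libraries (log2 fold change -0.66, SE 0.17, adjusted p = 0.02). Week 1 values were 9.37, 9.78 and 9.64 CPM in Δ/Δ libraries, against 8.78, 9.20 and 8.92 CPM in wt/wt libraries, and in sorted cells at most 0.734 CPM. The Δ/Δ libraries were the lower ones at week 4 and the higher ones at week 1, without overlap in either. The week 1 difference did not pass the edgeR test (log2 fold change 0.10, SE 0.17, adjusted p = 0.93). Nor did the difference between the weeks in edgeR (-0.76, adjusted p = 0.0886). Its week 4 call was lost under 4 of 13 alternatives, among them leaving out Δ/Δ replicate 1 (adjusted p = 0.063) or wt/wt replicate 2 or 3 (adjusted p = 0.0905 and 0.0551). Ube2h, a ubiquitin-conjugating enzyme, had 202, 226 and 198 CPM in Δ/Δ libraries at week 4, against 170, 151 and 168 CPM in wt/wt libraries (log2 fold change 0.35, SE 0.10, adjusted p = 0.0320). At week 1 it had 139, 157 and 138 CPM in Δ/Δ libraries, against 125, 132 and 143 CPM in wt/wt libraries, with overlapping groups. Values in sorted cells were 152, 130 and 127 CPM in Δ/Δ libraries, against 105, 85.1 and 122 CPM in wt/Δ libraries, with no overlap (log2 fold change 0.39, adjusted p = 0.441). That call was lost under 8 of 13 alternatives, among them leaving out any Δ/Δ replicate or wt/wt replicate 2 or 3 (adjusted p from 0.0511 to 0.142).

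**Figure D4:**
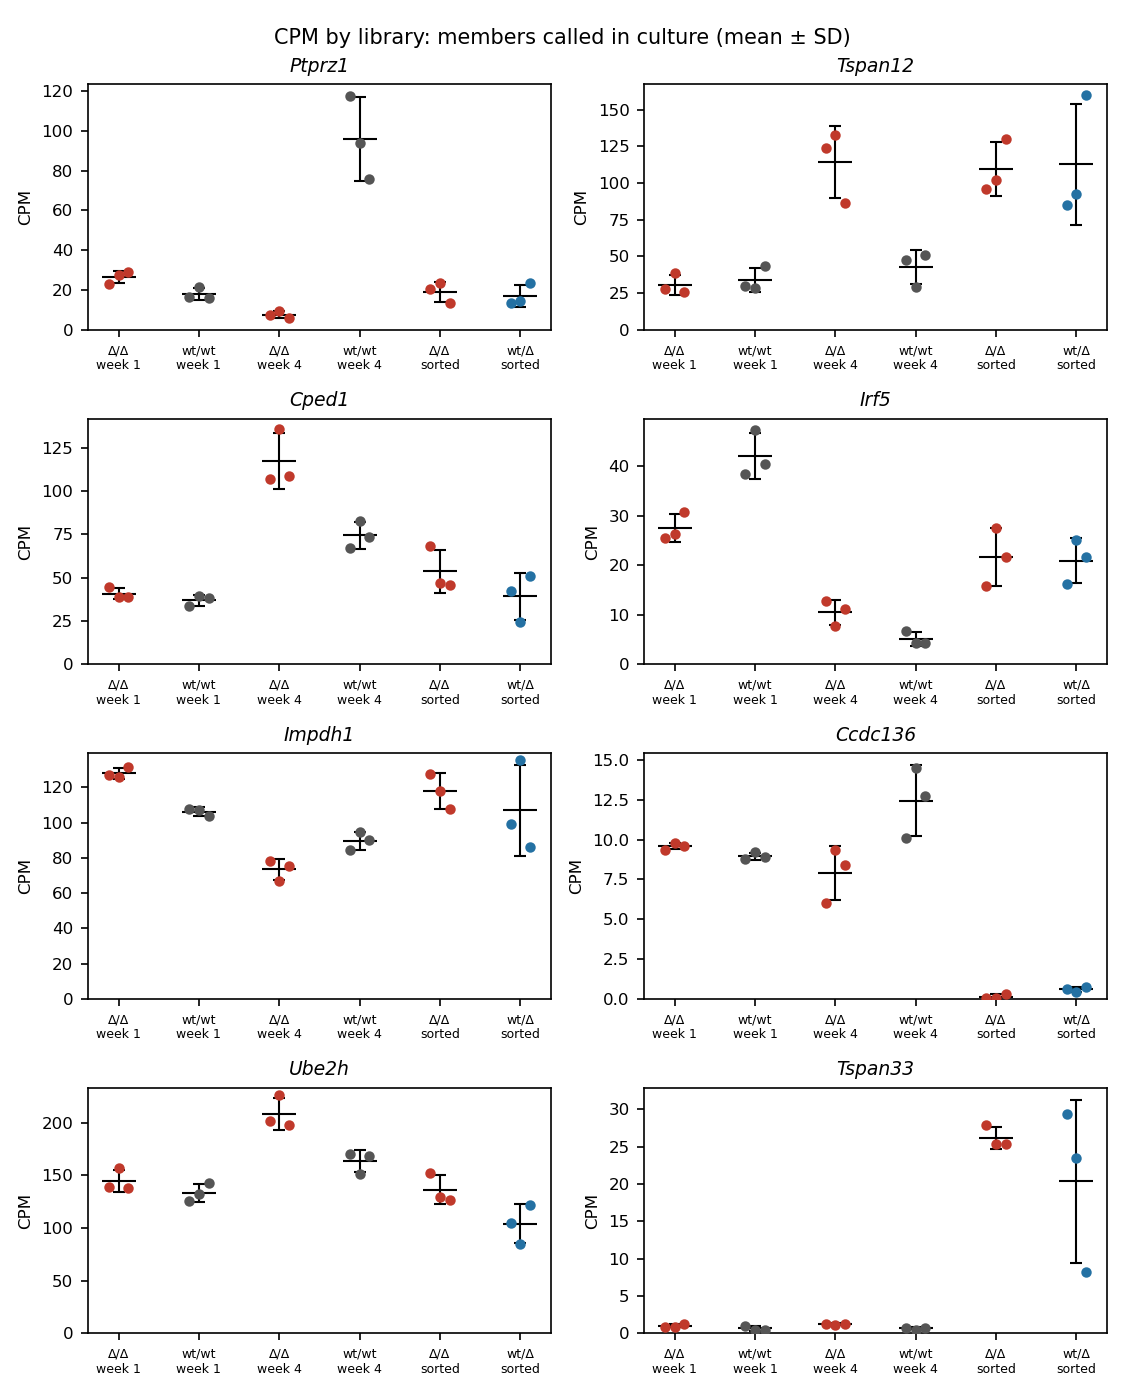
CPM in each library for the 7 neighbours called at week 4 besides Arf5 and for Tspan33, called over both weeks, with points for libraries and bars for mean ± SD (n = 3). Red, Δ/Δ; grey, wt/wt; blue, wt/Δ; at week 4, Ptprz1 lies between 6.09 and 9.53 CPM in Δ/Δ and between 75.9 and 118 CPM in wt/wt libraries.

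Over both weeks, 5 of 24 neighbours were called (20.8%), against 10.5% of all genes. Tspan12, Cped1 and Tspan33 rose (3 of 24, against 6.65% of all genes), and Ptprz1 and Arf5 fell (2 of 24, against 3.8%). The count was 3 without any one of 6 libraries, against 7.65% to 9.44% of all genes in those fits. These were week 1 Δ/Δ replicates 1 and 2 and wt/wt replicate 2, and the libraries of the same numbers at week 4. The mean over both weeks for Ptprz1 (log2 fold change -1.55, adjusted p = 2.88e-05) averages effects of opposite sign. So does that for Tspan12, with log2 fold changes of -0.16 at week 1 and 1.42 at week 4. Tspan33, a tetraspanin of erythroid and B-lineage cells, had 0.907, 0.884 and 1.25 CPM in Δ/Δ libraries at week 1, against 0.983, 0.507 and 0.459 CPM in wt/wt libraries. Its week 4 level was 1.30, 1.09 and 1.27 CPM in Δ/Δ libraries, against 0.747, 0.493 and 0.709 CPM in wt/wt libraries. The groups overlapped at week 1 and not at week 4, at 10 to 117 reads per library. Its call over both weeks (log2 fold change 0.78, SE 0.22, adjusted p = 0.0414) was lost under 13 of 18 alternatives, among them leaving out any library but wt/wt replicate 1 of either week (adjusted p from 0.0618 to 0.148). In sorted cells it had 27.9, 25.4 and 25.3 CPM in Δ/Δ libraries, against 29.4, 23.5 and 8.18 CPM in wt/Δ libraries. There, 4 B-lineage markers summed to 99.7 to 143 CPM in Δ/Δ and 100 to 211 CPM in wt/Δ libraries, against at most 0.0709 CPM in culture, and their part in the level of Tspan33 was not tested.

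The genotype effect changed between the weeks for 4 of 24 neighbours (16.7%), against 7.15% of all genes. They were Tspan12 and Irf5, whose effect was higher at week 4 (2 of 24, against 4.08% of all genes), and Ptprz1 and Impdh1, whose effect was lower (2 of 24, against 3.08%). Without week 1 Δ/Δ replicate 3, those of Tspan12 and Impdh1 no longer passed (adjusted p = 0.0536 and 0.0537), nor did that of Impdh1 without week 1 wt/wt replicate 3 (adjusted p = 0.0573). DESeq2 called a change between the weeks for 6 of 24, Ccdc136 and Ahcyl2 besides these 4, against 9.04% of all genes. Effects had the same sign at both weeks for 9 of 24 neighbours (37.5%), against 55.4% of all genes. No neighbour was called at both weeks, as none was called at week 1. Of all 13169 genes, 89 were called at both, a share so low that a count of 0 does not set the neighbours apart. With time in culture, 11 of 24 neighbours were called between week 4 and week 1 in Δ/Δ cultures, against 35.1% of all genes. Of these, 7 rose, against 18.8% of all genes, and 4 fell, against 16.3%. In wt/wt cultures 7 of 24 were called, against 34% of all genes, of which 5 rose, against 17.9%, and 2 fell, against 16.1%. The same-numbered wt/wt libraries of the 2 weeks were taken as pairs because they deviated together, although the labels do not state a pairing. With the replicate as a block, 6 of 24 were called over all cultured libraries, against 32.8% of all genes in that fit. In the 6 wt/wt libraries alone it gave 4 of 23 (Cped1, Ptprz1, Atp6v1f and Irf5), against 27.5% of all genes. The wt/wt count was 3 without week 1 replicate 2 or 3, against 27.1% and 27% of all genes in those fits. It was 4 without week 4 replicate 2, against 28.9%.

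In sorted cells, none of 28 tested neighbours was called in edgeR between Δ/Δ and wt/Δ libraries, against 0% of 14605 genes. At an unadjusted p under 0.05 there were 2 of 28, Gcc1 and Atp6v1f, against 12.3% of all genes. DESeq2 called 0 of 20, against 4.32% of all genes. The groups did not overlap for 7 of 28 (Gcc1, Arf5, Calu, Ccdc136, Atp6v1f, Ube2h and Kcnd2), against 20.5% of all genes. The median size of the log2 fold change was 0.25, against 0.30 over all genes. Atp6v1f, a subunit of the vacuolar proton pump, had the lowest p of the 28. It had 62.3, 72.5 and 79.2 CPM in Δ/Δ libraries, against 115, 100 and 97.5 CPM in wt/Δ libraries (log2 fold change -0.55, 95% interval -0.92 to -0.18, adjusted p = 0.272). All Δ/Δ libraries lay below, whereas in culture its groups overlapped, with log2 fold changes of -0.04 at week 1 and 0.11 at week 4.

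The remaining tested neighbours did not pass the test for genotype in any comparison. Wasl (N-WASP, an activator of the Arp2/3 complex) and Zfp800, the nearest tested genes on either side of Pot1a in culture, lie 1.08 and 2.40 Mb away. Wasl had log2 fold changes of 0.13 at week 1, 0.23 at week 4 and -0.14 in sorted cells. Zfp800 had log2 fold changes of -0.0032, 0.30 and 0.09 in the same order. Flnc, the actin crosslinker filamin C, varied widely between libraries of a group, with 166 to 341 CPM in Δ/Δ and 135 to 290 CPM in wt/wt libraries at week 1 and 38.0 to 145 CPM in Δ/Δ and 31.2 to 210 CPM in wt/wt libraries at week 4. Its level was 0.991 to 1.41 CPM in Δ/Δ and 0.756 to 2.79 CPM in wt/Δ sorted cells. Hilpda, a hypoxia-induced inhibitor of the lipase ATGL, had log2 fold changes of 0.14 at week 1, -0.33 at week 4 and -0.49 in sorted cells. Ahcyl2, which regulates ion transport, had log2 fold changes of -0.28, 0.31 and 0.26 in that order.

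Calls were also made elsewhere on chromosome 6. Within 10 Mb of Pot1a, 46 further genes were tested in culture, of which 3 were called at week 1 (6.52%), 9 at week 4 (19.6%) and 8 over both weeks (17.4%). In the rest of chromosome 6, 6 of 574 genes were called at week 1 (1.05%), 107 at week 4 (18.6%) and 62 over both weeks (10.8%). The share of these 46 genes, without the listed neighbours, lay above that of the rest of the chromosome at week 1, on 3 genes. It also lay above it over both weeks, on 8 genes, and close to it at week 4. These shares were not tested against each other. On the whole chromosome 125 of 645 genes were called at week 4 (19.4%). Per chromosome this share ran from 13.1% to 20.2%. The 2 windows of 10 Mb on either side of Pot1a, with the listed neighbours included, had 6 of 19 and 11 of 51 genes called at week 4. In other windows of chromosome 6 the share at week 4 was between 11.4% and 57.1%. At week 1 the 2 windows beside Pot1a had 2 of 19 and 1 of 51 genes called. The share per chromosome at week 1 ran from 0.262% to 2.41%. Among genes that are not in the list, Cav1, which encodes the caveolae protein caveolin-1, was called at both weeks with the same sign (log2 fold changes -0.98 and -1.34, adjusted p = 0.00649 and 4.51e-05). Fam180a was called at both weeks with opposite signs (3.35 and -5.05, adjusted p = 0.0105 and 1.22e-06).

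**Figure D5:**
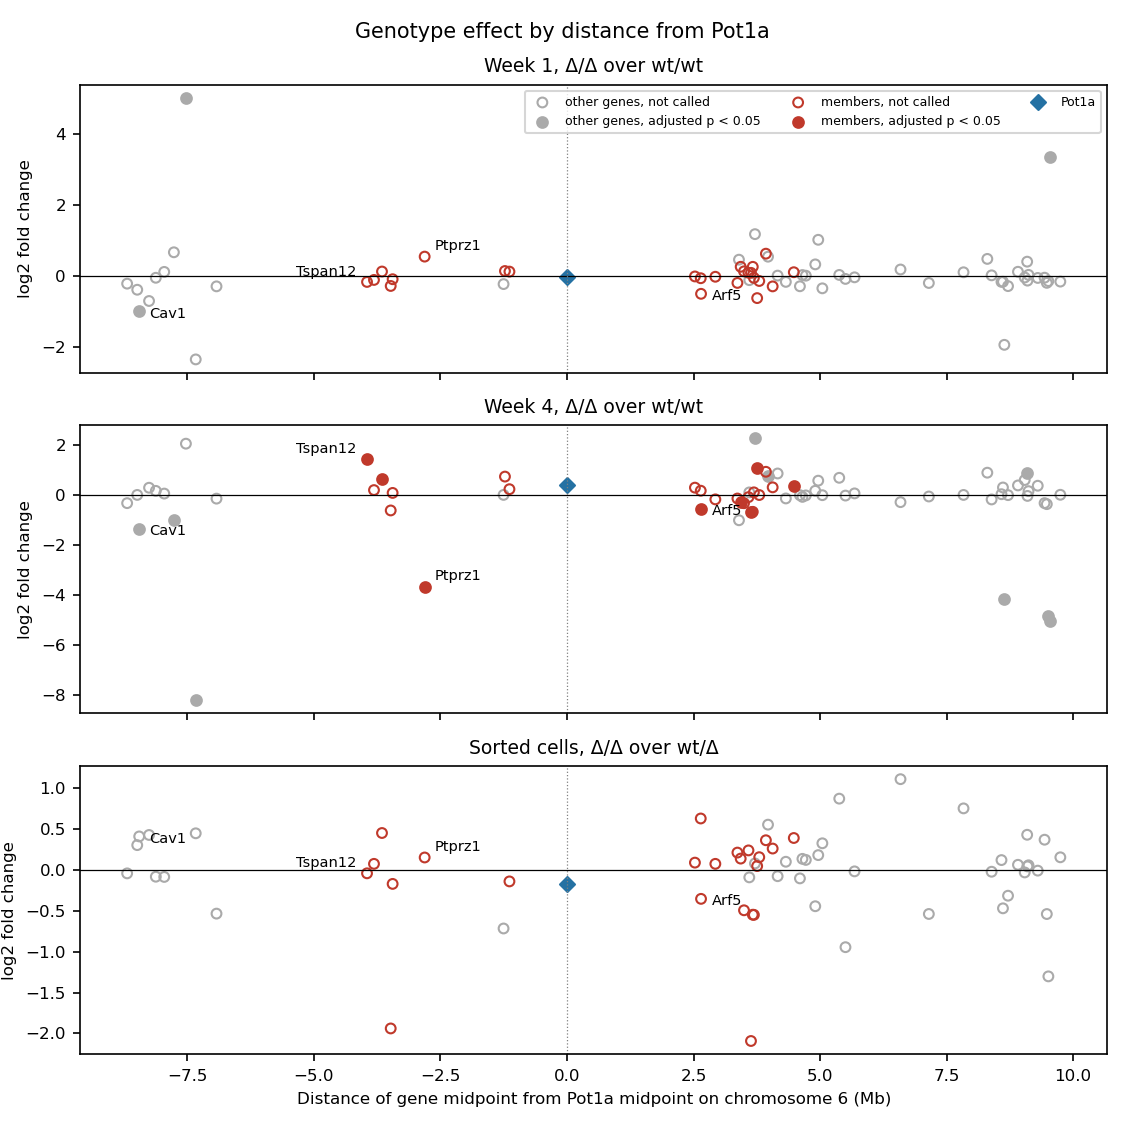
Log2 fold change of genes on chromosome 6 within 10 Mb of Pot1a against their distance in Mb from it, for week 1, week 4 and sorted cells, on vertical axes of different range. Red, the neighbours listed here; grey, other genes; blue diamond, Pot1a; filled circles passed an adjusted p of 0.05, and called genes lie on both sides and in both directions at week 4.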

How the data were processed

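The authors aligned reads of SMART-Seq v4 and Nextera XT libraries, which do not mark strand, to mm10 (HISAT2 2.0.4) and summed them over genes (featureCounts 1.6.3), per the submitters' processing notes. The deposited values are whole-number counts per gene symbol with no normalization. Genes were tested from the deposited counts by edgeR 4.0.16 under R 4.3.3 (filterByExpr with a minimum count of 10, TMM, quasi-likelihood F test, Benjamini-Hochberg adjustment over all genes tested, threshold 0.05) and, as an alternative, DESeq2 1.42.0. The 12 cultured libraries were fitted together (13169 genes) and the 6 of sorted cells apart (14605 genes), with no covariate. Reads assigned per library numbered 12807832 to 90717232. The standard error is the log2 fold change over the root of F. No replicates agreed within sampling noise (chi-squared per degree of freedom 10.8 to 376). Positions came from RefSeq GRCm38.p6, in which 23203 symbols matched by name, 1109 by synonym and 109 did not match, and exon lengths from GENCODE M21.

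Libraries were grouped by the sample titles. Members and lists were chosen with earlier results of these data known. Named in full were Pot1a and every member called for genotype, and other genes of chromosome 6 within 10 Mb only where called at both weeks. The other neighbours named with values beside Arf5 and in sorted cells were chosen after their values were seen. Same-numbered wt/wt libraries of week 1 and week 4 deviated together (correlations 0.152, 0.220 and 0.209), and those numbers were taken as pairs. In the other comparisons at least 1 correlation was 0.1 or less. Between the genotypes at week 4 the correlations were 0.636, 0.226 and -0.0835, and those numbers were not taken as pairs. Alternatives were other scalings, filters, DESeq2, a replicate block, fits of the compared libraries alone and leaving out each library. After seeing the data, a block in wt/wt libraries alone, a covariate for Y-linked reads and a fit without the 2 sorted libraries high in megakaryocyte genes were added.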

Additional observations from a re-analysis of the deposited data

Results flagged for a closer look

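For 4 of the 24 neighbours tested, the effect of genotype (Δ/Δ over wt/wt) differed between week 4 and week 1 by a test of the difference itself, the interaction term in edgeR. The difference was 1.58 for Tspan12 (adjusted p = 0.0155), -4.22 for Ptprz1 (adjusted p = 6.21e-06), -0.56 for Impdh1 (adjusted p = 0.0183) and 1.68 for Irf5 (adjusted p = 0.00333), on the log2 scale.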

How the results depend on the processing

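The calls of Arf5, Ptprz1, Tspan12, Cped1 and Irf5 at week 4 held under all 13 alternatives, and those of Arf5, Ptprz1 and Cped1 over both weeks under all 18. Read counts were low for Tspan33, with 10 to 117 reads per cultured library, and Ccdc136 in sorted cells, with 2 to 11 reads in Δ/Δ and 21 to 25 reads in wt/Δ libraries. At week 1, DESeq2 called 1 neighbour (Arf5), with 3.34% of all genes called. A fit of the 6 libraries alone called 1 (Irf5), with 1.88% of all genes. The main fit called 0, with 1.02%. At week 4, a fit of the 6 libraries alone called 5, with 9.89% of all genes, against 8 in the main fit, with 15.7%. For week 4 over week 1 in wt/wt, no filter on low counts gave 4, with 22% of all genes called. A replicate block in those 6 libraries alone gave 4, with 27.5%, and the main fit gave 7, with 34%. With the replicate number as a block in all libraries, 0 neighbours were called at week 1 and 6 at week 4. That block gave 4 over both weeks, 4 for the interaction and 0 in sorted cells. Of all genes, 0.828%, 14.5%, 9.36%, 6.73% and 0% were called, in that order. In these comparisons same-numbered samples were not taken as pairs. Leaving out a library in turn gave 5 to 8 at week 4, with 11.6% to 17.5% of all genes called. It gave 3 to 6 over both weeks (7.65% to 12.6% of all genes) and 2 to 5 for the interaction (4.84% to 9.35%). The count of 2 came without week 1 Δ/Δ replicate 3. For time it gave 3 to 7 in wt/wt (27% to 33.2%) and 9 to 11 in Δ/Δ (25.1% to 32.2%). In sorted cells, uncalled log2 fold changes turned sign for Tspan12 with library size only (0.020), with a replicate block (0.0055) and with the covariate for Y-linked reads (0.24), and with that covariate for Impdh1 (-0.20) and Irf5 (-0.21). Leaving out a library turned uncalled values within these ranges: in sorted cells Pot1a -0.28 to 0.014, Tspan12 -0.21 to 0.30, Ptprz1 -0.028 to 0.44, Irf5 -0.17 to 0.23 and Tspan33 -0.012 to 0.72; at week 1 Pot1a -0.084 to 0.046 and Tspan12 -0.35 to 0.060; over both weeks Impdh1 -0.041 to 0.0089; for the interaction Arf5 -0.16 to 0.033 and Tspan33 -0.16 to 0.49. The cause of these changes was not tested.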
